A study of Mus musculus with 8 samples.

Results

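The comparison described here is that of CD115- with CD115+ monocytic cells from the bone marrow (BM) of mice bearing EL4 tumors, called CD115- and CD115+ M-MDSCs (monocytic myeloid-derived suppressor cells). It rests on 4 of the 8 RNA-Seq libraries of the series, 2 of CD115- M-MDSCs (tCD115-) and 2 of CD115+ M-MDSCs (tCD115+), and on all genes, of which 13211 of the 16160 in the deposited table had enough reads to be tested. Members were chosen by the sample labels alone, so no measured value decided which libraries entered. The mice were wild-type C57BL/6, EL4 is a T cell lymphoma line of that strain injected under the skin, and the labels put the cells at day 21 after inoculation. All cells were sorted as CD11c-CD11b+Ly6G-SiglecF-Ly6Chi before they were separated by CD115. The other 4 libraries are CD115- and CD115+ monocytes (nCD115- and nCD115+, 2 each) of tumor-free mice, sorted through the same gate. Both libraries of each group are described as biological replicates. How many mice each one represents is not stated, so p-values measure the spread between libraries.

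CD115 is the receptor for M-CSF and is encoded by Csf1r. Signalling through it carries progenitors into the monocyte line, where the transcription factors IRF8 and KLF4 act, whereas C/EBPε and GFI1 act in the granulocyte line. Granulocytes fill their granules in order as they mature: primary (azurophil) granules with myeloperoxidase and elastase in the promyelocyte, secondary (specific) granules with lactoferrin and cathelicidin in the myelocyte, and tertiary (gelatinase) granules later. A transcript of one of these proteins is therefore tied to a stage of granulocytes, though some, such as that of myeloperoxidase, were also well expressed in tCD115+. M-MDSCs are monocytic cells that accumulate in tumor-bearing hosts and restrain T cells, through products such as arginase and nitric oxide in several mouse models.

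The 8 libraries held 69692398 to 95353798 reads each. Levels are given as CPM, counts divided by library size after scaling by trimmed mean of M-values (TMM), which allows a gene to be compared between libraries, and as the authors' FPKM (fragments scaled for transcript length and library size) where genes are compared with each other. Pairs of levels below are replicates 1 and 2 of tCD115- followed by replicates 1 and 2 of tCD115+. Calls required a fold change of at least 2 and, in edgeR's quasi-likelihood test, a Benjamini-Hochberg adjusted p below 0.05. Changes are on the log2 scale, tCD115- over tCD115+, with a standard error (SE) derived from the change and the F statistic of that test. This SE is approximate where a group had few reads. The 2 tCD115- libraries differed more from each other than the replicates of any other group, with a chi-square per degree of freedom of 214 over genes against 34.1 for tCD115+, 63.9 for nCD115- and 48.7 for nCD115+, and no pair agreed within sampling noise.

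Transcripts of the sorting markers were examined first. Csf1r, which encodes the marker that separated the groups, had 283 and 490.3 against 891 and 869 CPM (log2 change -1.19 ± 0.23, adjusted p = 0.00634), so both tCD115- libraries lay below both tCD115+ libraries without overlap. Csf1r lost its call, which needs both the fold and the adjusted p, when tCD115- replicate 1 was left out. Ly6c2, whose product with that of Ly6c1 makes up the Ly6C antigen, had 1700 and 1681 against 1985 and 2112 CPM, and Itgam, which encodes CD11b, had 1393 and 1485 against 894 and 754 CPM. Neither reached a 2-fold difference, and Ly6c1 and Ly6c2 are near-identical copies whose reads may be split. Ly6g, which encodes a surface protein of neutrophils that the gate excluded, had 44.3 and 26.7 against 0.9802 and 0.468 CPM (log2 change 5.57 ± 0.37, adjusted p = 6.48e-05). Siglecf, which encodes the eosinophil protein that the gate excluded, had 10.5 and 7.101 against 1.52 and 1.33 CPM (2.62 ± 0.25, adjusted p = 0.000301). Transcripts of both excluded markers were thus low but higher in tCD115- than in tCD115+, without overlap of the libraries. Itgax, which encodes CD11c, was between 1.64 and 3.13 CPM in the 4 libraries.

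In the comparison over all genes, tCD115- had 1105 of 13211 genes (8.36%) above tCD115+ and 525 (3.97%) below it. All 1630 had libraries that did not overlap between the groups, and among all tested genes the libraries did not overlap in the higher direction for 31.4% and in the lower direction for 40.1%. The size of the changes differed by direction. Of the genes called higher, 676 (61.2%) reached 4-fold, 487 (44.1%) 8-fold and 186 (16.8%) 32-fold, whereas of those called lower 40 (7.62%) reached 4-fold, 14 (2.67%) 8-fold and 2 (0.381%) 32-fold. For these counts and the medians of called genes, 121 genes called higher without a read in tCD115+ and 13 called lower without a read in tCD115- were placed at the bound that 3 counts in the empty group would give, a limit for counting error alone. The median change was 2.59 for genes called higher and -1.19 for genes called lower, against -0.05 over all genes tested. At mean levels of 100 CPM and above in the EL4 libraries, 131 of 2346 genes (5.58%) rose and 39 (1.66%) fell in tCD115-. A test against a 2-fold change (glmTreat) instead of against no change called 621 higher and 15 lower.

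The count of lower genes depended on single libraries. It was 196 without tCD115- replicate 1, 1127 without tCD115- replicate 2, 342 without tCD115+ replicate 1 and 327 without tCD115+ replicate 2, and it was 255 when only the 4 EL4 libraries were fitted. Scaling also moved the split: with library totals alone the median over all genes shifted from -0.05 to -0.20, and 1010 genes were higher and 840 lower (54.6% of calls higher, against 67.8%).

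**Figure D1:**
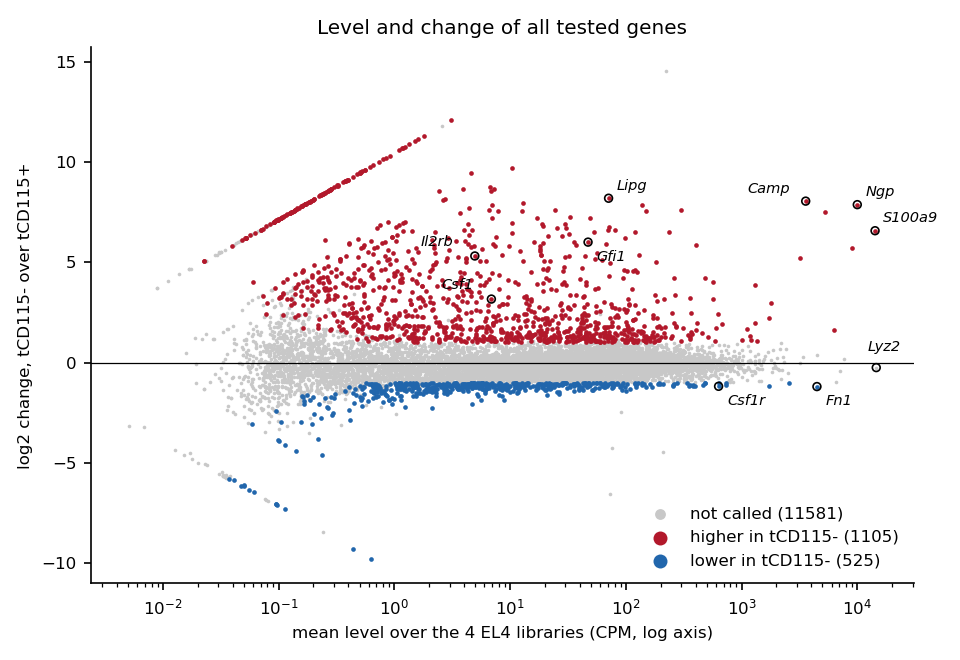
Mean level over the 4 EL4 libraries (CPM, log axis) against the log2 change of tCD115- over tCD115+ for the 13211 tested genes, with 1105 genes called higher in red and 525 called lower in blue. Called genes extend to changes above 7 at high levels on the upper side (Ngp, Camp), while most genes on the lower side sit close to -1, and the diagonal rows of points are genes without a read in one group, whose fitted change is no estimate.

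Transcripts of secondary granule proteins were among the most abundant ones that separated the subsets. Of the 16 tested members, 14 were called higher and 0 lower, with a median change of 5.85. Ngp, which encodes neutrophilic granule protein (chr9:110419808-110423012, GRCm38), had 24138 and 15682 against 101 and 67.7 CPM (log2 change 7.88 ± 0.34, adjusted p = 1.66e-05). Ltf, which encodes the iron-binding lactoferrin (chr9:111019292-111042766), had 12334 and 8701 against 68.00 and 45.7 CPM (7.53 ± 0.34, adjusted p = 1.66e-05). Camp, which encodes the antimicrobial cathelicidin (chr9:109847377-109849456), had 8918 and 5356 against 32.4 and 21.2 CPM (8.06 ± 0.37, adjusted p = 1.66e-05). In each of these genes both tCD115- libraries lay far above both tCD115+ libraries, and replicate 1 was above replicate 2 within both groups. Lcn2, which encodes the siderophore-binding lipocalin 2 (chr2:32384637-32387739), had 7572 and 4997 against 206 and 136 CPM (5.20 ± 0.32, adjusted p = 5.06e-05). Olfm4, a marker of a subset of neutrophils, had 102 and 93.8 against 0.606 and 0.743 CPM (7.19 ± 0.18, adjusted p = 5.86e-06), and Cd177, a surface partner of proteinase 3 in human neutrophils, had 2849 and 2068 against 179 and 153 CPM (3.89 ± 0.22, adjusted p = 3.5e-05). Chit1, which encodes the chitin-cleaving chitotriosidase (chr1:134111242-134151541), was the gene of largest change among those with a mean of at least 10 CPM. It had 22.3 and 18.8 against 0.0202 and 0.0275 CPM (9.70 ± 0.31, adjusted p = 9.6e-06). In the tCD115+ libraries 1 read is 0.0105 and 0.0143 CPM before TMM scaling, so the Chit1 level there rests on few reads. The size and rank of this change are therefore uncertain. Mmp8, which encodes neutrophil collagenase, and Hp, which encodes haptoglobin, were not called, and Mmp8 had 161 and 219 against 333 and 276 CPM, the only tested member that lay lower in tCD115-. The 16 genes together took 6.70% and 4.82% of all reads in tCD115- and 0.641% and 0.505% in tCD115+. Chil3, described below, is among the 14 called higher. In tCD115+ it had 3634 and 2610 of the 6176 and 4842 CPM that the list summed to.

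Since these genes moved together, the 250 bases before their start sites were searched for TTNNGCAA on both strands, a spelling of the site bound by factors of the C/EBP family. RefSeq windows (GRCm38.p6) were at hand for 15 of the 16 members, and 5 of the 15 (33.3%) held a match, against 10.8% of all 27025 genes with a window, 9.3% of tested genes with a window, 11.8% of 854 genes called higher and 11.1% of 405 called lower. A match stood in 8 of 29 windows (27.6%) of tertiary granule and mature neutrophil genes, in 0 of 9 of primary granule proteins, most of which were also called higher, and in 1 of 21 (4.76%) of monocyte genes. The stretches around a match in the promoters of the 4 genes among them with the clearest contrast in levels or in outcome are shown in the sense of the gene, with the match in capitals and positions counted back from the start site. A match describes the letters and not the binding of a factor.
Ngp, bases -138 to -131, chr9:110419659-110419688, + strand: gtcctggtttaTTGCCCAAacctccttgcc
Ltf, bases -75 to -68, chr9:111019206-111019235, + strand: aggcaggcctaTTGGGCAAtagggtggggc
Lcn2, bases -216 to -209, chr2:32387937-32387966, - strand: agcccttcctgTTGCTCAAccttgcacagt
Mmp8, bases -19 to -12, chr9:7558399-7558428, + strand: ttaggcagaagTTGCTCAAgatgtagcttt
The same 8 letters TTGCTCAA stood in the windows of Lcn2, called higher, and of Mmp8, not called, and Camp had no match in its window.

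**Figure D2:**
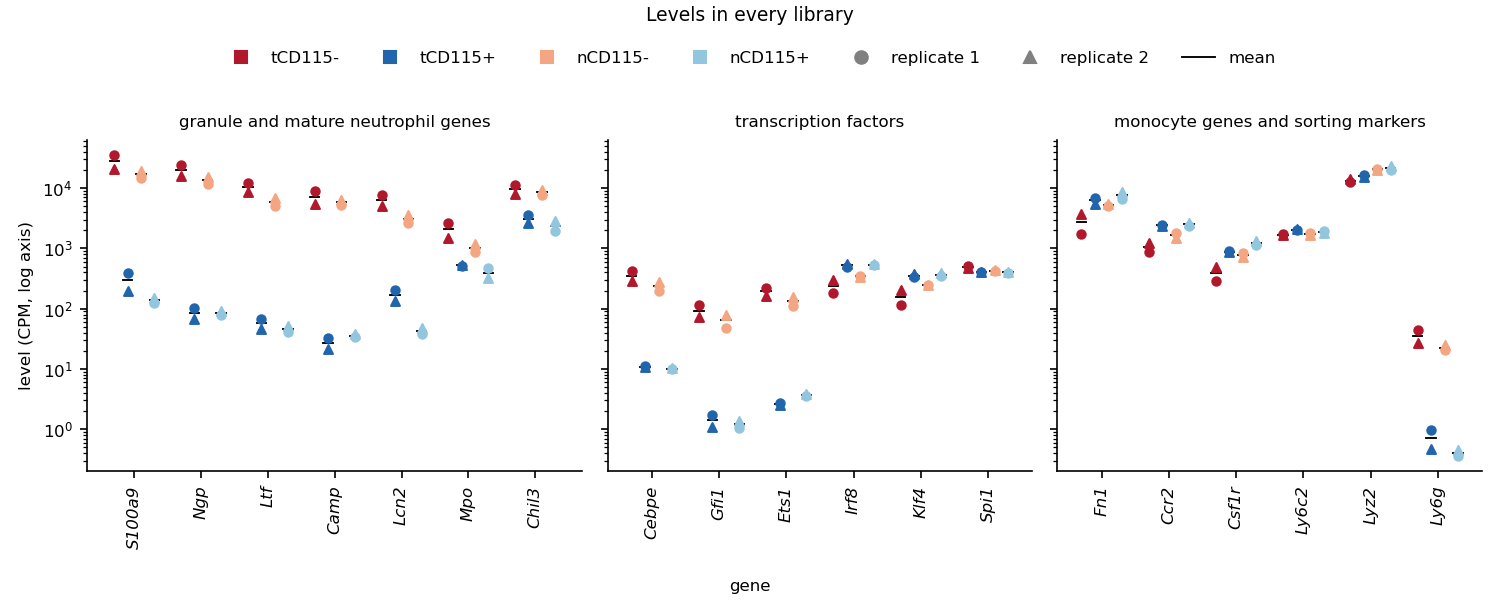
Levels (CPM, log axis) of granule genes, transcription factors, and monocyte genes with sorting markers in each of the 8 libraries, with circles for replicate 1, triangles for replicate 2 and bars for the group mean. Ngp, Ltf, Camp, Cebpe, Gfi1, Ets1 and Ly6g separate both CD115- groups from both CD115+ groups by more than 10-fold, while Irf8, Klf4, Fn1, Ccr2 and Csf1r differ by about 2-fold in EL4 mice and Lyz2, Ly6c2 and Spi1 by less.

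Transcripts of tertiary granules and mature neutrophils were called higher for 27 of 32 tested members and lower for 0, with a median change of 3.80. S100a9 and S100a8, which encode the subunits of calprotectin, were with Ngp the 3 genes of highest CPM in tCD115-. S100a9 had 35325 and 21023 against 392 and 198 CPM (log2 change 6.58 ± 0.44, adjusted p = 6.3e-05), and S100a8 had 22647 and 12616 against 418 and 247 CPM (5.73 ± 0.38, adjusted p = 6.4e-05). Per length these were means of 49586 and 41404 FPKM in tCD115- against 576 and 868 FPKM in tCD115+, while Lyz2, which encodes lysozyme of monocytes and granulocytes alike, was at 11702 and 15356 FPKM and was not called (-0.25 ± 0.11 on the log2 scale, adjusted p = 0.113). Mmp9, which encodes gelatinase B, had 111 and 41.95 against 6.32 and 2.23 CPM (4.15 ± 0.68, adjusted p = 0.00503). Within each group replicate 1 was well over replicate 2 for this gene. The stefins of chromosome 16, cysteine protease inhibitors, showed the same imbalance: Stfa1 had 23.9 and 7.55 against 0.101 and 0.05502 CPM (7.58 ± 0.75, adjusted p = 0.000383), and the near-identical copies of this cluster can exchange reads, so that single members are uncertain. Csf3r, which encodes the receptor for G-CSF, had 354 and 401 against 248 and 267 CPM, and Fpr1, Slpi, Clec4d and Clec4e were not called either. Read shares of the list were 5.65% and 3.51% in tCD115- and 0.168% and 0.124% in tCD115+.

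Primary granule proteins were higher in tCD115- by smaller factors, with 9 of 11 tested members called higher, 0 lower and a median change of 1.51. Mpo, which encodes myeloperoxidase, had 2664 and 1485 against 515 and 540.2 CPM (log2 change 1.98 ± 0.30, adjusted p = 0.00272), and Elane, which encodes neutrophil elastase, had 1354 and 793 against 280.1 and 277 CPM (1.95 ± 0.27, adjusted p = 0.0018). Both tCD115- libraries were above both tCD115+ libraries, where these genes were still well expressed. Prss57, which encodes the serine protease NSP4, showed the largest change of the list at 109 and 63.4 against 6.104 and 4.57 CPM (4.01 ± 0.29, adjusted p = 9.19e-05). Ctsc, whose product activates the granule proteases, had 619 and 934 against 1402 and 1476 CPM and was not called. The 9 calls became 6 without tCD115- replicate 1, without either tCD115+ library and with library totals alone. Chil3, a chitinase-like protein of macrophages and neutrophils that was counted with the secondary granule proteins, was among the genes of highest CPM in both groups. It had 11140 and 7962 against 3634 and 2610 CPM (1.61 ± 0.25, adjusted p = 0.00288), where reads may be shared with its copy Chil4.

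The 10 genes of largest increase with a mean of at least 10 CPM over the 4 EL4 libraries were Chit1, Camp and Ngp, given above, and 7 others of several kinds. Lipg, which encodes endothelial lipase, had 175 and 108 against 0.667 and 0.248 CPM (log2 change 8.20 ± 0.53, adjusted p = 6.01e-05), and 3.26 and 5.98 against 0.04499 and 0 CPM in naive mice, so that the tCD115- libraries lay above all others. Itgb2l, an integrin beta chain of mouse neutrophil precursors, had 703 and 497 against 3.98 and 2.17 CPM (7.59 ± 0.37, adjusted p = 1.82e-05). Sept5, a septin, had 331 and 217 against 1.34 and 0.9904 CPM (7.86 ± 0.36), and Orm1, the acute-phase protein orosomucoid, had 57.9 and 38.8 against 0.243 and 0.248 CPM (7.62 ± 0.29). The chitinase-like Chil1, the receptor Mrgpra2a and the transporter Slco4c1 completed them with changes between 7.56 and 7.94. All 10 were also called higher in the CD115- cells of naive mice.

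Granulocyte transcription factors were split between those that differed by large factors and those that did not. Of 12 tested, 6 were called higher (Cebpe, Gfi1, Myb, Per3, Klf5 and Ets1) and 0 lower, with a median of 1.06. Cebpe, which encodes the factor needed for secondary granules, had 418 and 289 against 11.1 and 10.8 CPM (log2 change 5.01 ± 0.24, adjusted p = 1.8e-05). Gfi1, which encodes a repressor that favours the granulocyte over the monocyte fate, had 113 and 72.7 against 1.74 and 1.100 CPM (6.01 ± 0.38, adjusted p = 5.44e-05). Ets1, an ETS factor best known in lymphocytes, had 223 and 164 against 2.69 and 2.504 CPM (6.21 ± 0.23, adjusted p = 1.58e-05), and the Krüppel-like factor Klf5 had 22.3 and 19.2 against 0.354 and 0.0825 CPM (6.46 ± 0.41). Cebpd and Cebpb had changes of 0.64 ± 0.07 and -0.52 ± 0.13, under 2-fold in opposite directions. Cebpa, which acts upstream of both lineages, had 66.3 and 77.5 against 10.9 and 113 CPM, so the tCD115+ replicates lay on both sides of the tCD115- libraries and no direction could be read.

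Among 16 monocyte transcription factors, 4 were called lower (Irf8, Klf4, Irf4 and Batf3) and 2 higher (Id2 and Bhlhe40), with a median of -0.64. Irf8, the factor that commits progenitors to monocytes, had 184 and 296 against 496 and 554 CPM (log2 change -1.13 ± 0.19, adjusted p = 0.00418), and Klf4, a factor of monocyte differentiation, had 116 and 200.3 against 333 and 369 CPM (-1.15 ± 0.22, adjusted p = 0.00654). In both genes tCD115- replicate 1 was the lowest library. Id2, an inhibitor of helix-loop-helix factors, had 175 and 119 against 65.9 and 52.5 CPM (1.31 ± 0.18, adjusted p = 0.00167). Spi1, which encodes PU.1 of both lineages, had 503 and 479 against 409 and 408 CPM and was not called. The 4 lower calls became 0 without tCD115- replicate 1 and 8 without tCD115- replicate 2.

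Monocyte genes were called lower for 11 of 25 tested members and higher for 1, with a median change of -0.92. Both tCD115- libraries lay below both tCD115+ libraries in 20 of the 25, and in 40.1% of all tested genes. Ccr2, the receptor that draws monocytes out of the marrow, had 873 and 1244 against 2477 and 2349 CPM (log2 change -1.19 ± 0.17, adjusted p = 0.00202). Cx3cr1, the fractalkine receptor, had 41.6 and 68.4 against 151 and 139 CPM (-1.40 ± 0.22, adjusted p = 0.00292), and Fn1, which encodes fibronectin, had 1721 and 3715 against 6967 and 5519 CPM (-1.20 ± 0.33, adjusted p = 0.0239). F13a1, Ms4a4c, Ms4a6b, Ms4a6c, S100a4, Ccl9, Ace and Csf1r, whose product separated the groups, were the others called lower. Their changes ranged from -1.56 (Ace, which encodes the angiotensin-converting enzyme) to -1.03 (Ms4a6c). None of the 11 reached 4-fold, and tCD115- replicate 1 was below tCD115- replicate 2 in 21 of the 25 members. Fcgr4, an activating receptor for IgG, was the 1 called higher, at 32.6 and 21.5 against 12.8 and 8.17 CPM (1.36 ± 0.25, adjusted p = 0.00527). The number called lower was 3 without tCD115- replicate 1, 16 without tCD115- replicate 2 and 7 in the fit of the 4 EL4 libraries alone.

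The 10 genes of largest decrease with a mean of at least 10 CPM fell by 1.40 to 1.63 on the log2 scale. Sh3pxd2b, a podosome adaptor, had 8.47 and 12.02 against 34.1 and 29.2 CPM (log2 change -1.63 ± 0.18, adjusted p = 0.000616). Mfge8, a bridge between dying cells and phagocytes, had 5.23 and 6.69 against 17.4 and 16.97 CPM (-1.53 ± 0.14, adjusted p = 0.000267). Eng, the TGF-β co-receptor endoglin, had 5.09 and 7.12 against 16.8 and 17.6 CPM (-1.49 ± 0.17), Hmgn1, a nucleosome-binding protein, had 13.4 and 13.4 against 35.4 and 38.6 CPM (-1.47 ± 0.14), and Cd40, a co-stimulatory receptor, had 5.27 and 6.33 against 14.2 and 16.3 CPM (-1.40 ± 0.17). Gpr183, Bmyc, Stxbp6, Ace and Cx3cr1 were the other 5. The replicates of each group agreed closely in Hmgn1 and Mfge8, whereas in Ace the tCD115- libraries differed from each other by more than 2-fold.

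Dendritic cell and MHC class II genes were called lower for 5 of 22 tested members (Flt3, Cd209a, Kmo, Cd40 and Clec10a) and higher for 2 (Siglech and Ccr9), with a median of -0.66. The class II chains themselves were not called, and H2-Aa had 24.01 and 17.8 against 26.6 and 19.8 CPM. Flt3, the receptor of a dendritic cell growth factor, had 2.302 and 2.95 against 10.2 and 5.17 CPM (log2 change -1.55 ± 0.31, adjusted p = 0.00725). Siglech, a receptor of plasmacytoid dendritic cells, had 0.973 and 2.64 against 0.0707 and 0.206 CPM (3.76 ± 0.66, adjusted p = 0.00436), with tCD115- replicate 2 the highest of the 4 EL4 libraries, and 2.66 and 4.49 against 1.02 and 0.911 CPM in naive mice. Of 14 genes of BM macrophages, 2 were called higher and 1 lower. Vcam1, an adhesion molecule of the marrow (chr3:116110020-116129688), had 70.2 and 48.1 against 0.606 and 0.358 CPM (6.90 ± 0.30, adjusted p = 1.66e-05), and Slc40a1, the iron exporter ferroportin, had 175 and 104 against 1.597 and 1.24 CPM (6.60 ± 0.33, adjusted p = 2.17e-05). Genes that define resident macrophages did not follow them: C1qa, C1qb and C1qc were between 0.536 and 3.58 CPM in the 4 libraries and were not called, Spic and Cd5l were at or under 0.323 CPM, Adgre1 had 63.2 and 107 against 159 and 149 CPM, and Cd163 was called lower at 0.937 and 0.824 against 1.76 and 1.97 CPM. The 5 lower calls among dendritic cell genes became 3 without tCD115- replicate 1 and 8 without tCD115- replicate 2, and that of Cd163 was lost without tCD115- replicate 2 and without tCD115+ replicate 2.

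Stem and progenitor genes were called higher for 5 of 19 tested members (Kit, Erg, Hlf, Cdk6 and Cd27) and lower for 2 (Cd34 and Meis1), with a median of 0.13. Kit, the receptor for stem cell factor, had 45.3 and 31.8 against 2.33 and 1.75 CPM (log2 change 4.23 ± 0.24, adjusted p = 3.5e-05). Erg, an ETS factor of stem cells and endothelium, had 43.8 and 28.4 against 1.07 and 0.674 CPM (5.34 ± 0.35, adjusted p = 6.16e-05), and Hlf, a factor of stem cells, had 9.63 and 6.59 against 0.283 and 0.151 CPM (5.17 ± 0.39, adjusted p = 0.00011). Cd34, a surface marker of progenitors, went the other way at 3.74 and 3.38 against 8.09 and 9.68 CPM (-1.32 ± 0.28, adjusted p = 0.00904). Hoxa9, Gata2 and Sox4 were at or under 1.28 CPM in all 4 libraries and were not called. The 2 lower calls were 0 without tCD115+ replicate 2 and 1 without either tCD115- replicate 1, tCD115+ replicate 1 or an nCD115- library. The sign of this median was not stable, being negative in 3 of 17 alternatives.

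Cell cycle transcripts were abundant in both subsets and 0 of 42 were called. For the 22 DNA replication genes the median change was 0.30, and for the 20 mitosis genes it was 0.17. Of the 22, 16 were higher in tCD115- without overlap of the libraries, as were 31.4% of all tested genes. Rrm2, a subunit of ribonucleotide reductase, had 578 and 453 against 306 and 306 CPM (log2 change 0.75 ± 0.13, adjusted p = 0.00425, under 2-fold). Mki67, the proliferation marker Ki-67, had 1266 and 1664 against 1106 and 1201 CPM (0.35 ± 0.14, adjusted p = 0.0986), and Top2a, topoisomerase of dividing cells, had 1208 and 1098 against 1089 and 1124 CPM (0.06 ± 0.09, adjusted p = 0.651). An adjusted p under 0.05 was reached by 9 of the 22 replication genes and 1 of the 20 mitosis genes, all under 2-fold, and an unadjusted p under 0.05 by 14 and 6. DESeq2 and limma-voom also called 0 of the 42.

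**Figure D3:**
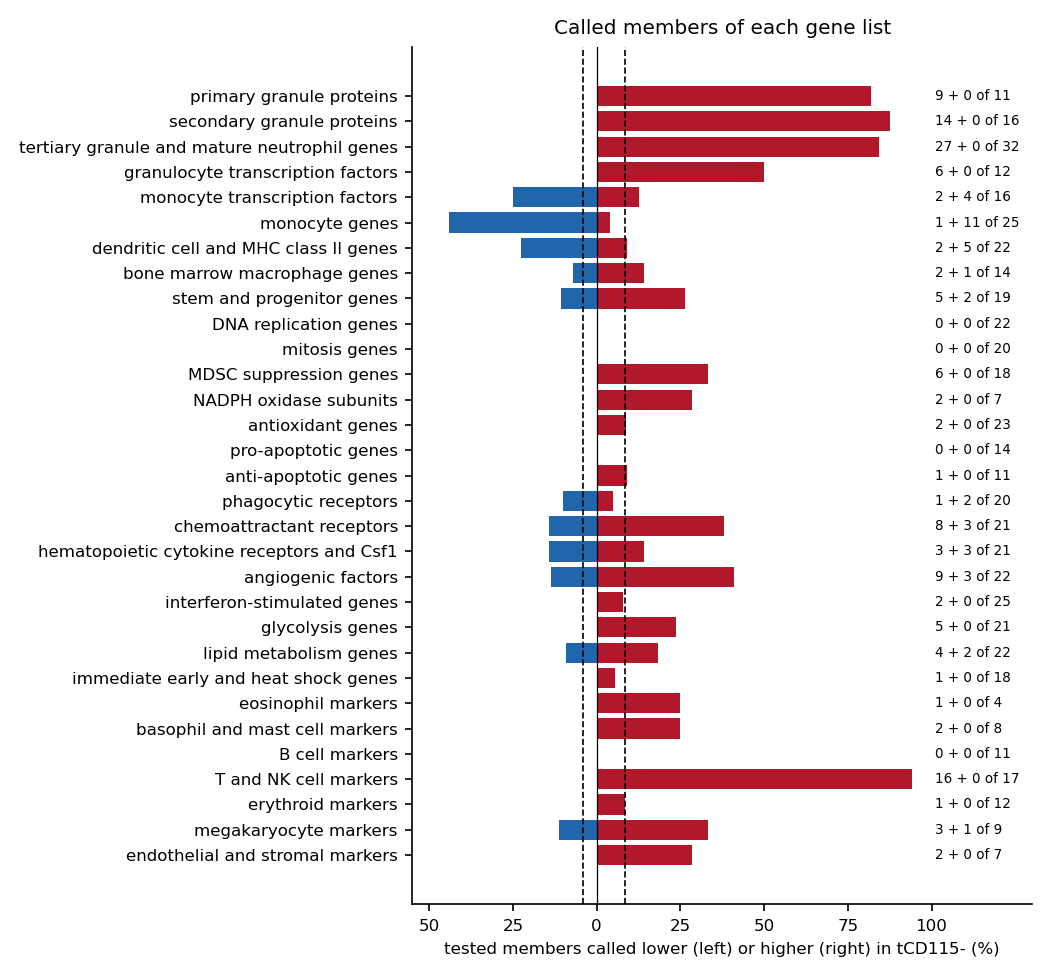
Share of the tested members of each gene list that was called higher (red, right) or lower (blue, left) in tCD115-, with the numbers called higher plus lower of those tested at the right. The dashed lines mark the shares over all genes, 8.36% higher and 3.97% lower, and the granule, mature neutrophil, and T and NK cell lists reach above 80% higher.

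The transcript of the ligand of CD115 was higher in tCD115-. That of the receptor was lower, in groups that had been sorted by the receptor itself. Csf1, which encodes M-CSF (chr3:107741048-107760469), had 14.99 and 9.83 against 1.45 and 1.31 CPM (log2 change 3.17 ± 0.23, adjusted p = 8.69e-05), with no overlap, while Csf1r was lower as given above. Of 21 cytokine receptors and Csf1, 3 were called higher (Csf1, Kit and Il1r2) and 3 lower (Csf1r, Flt3 and Il6st), with a median of -0.43. Il1r2, the decoy receptor of interleukin-1, had 74.1 and 40.1 against 5.04 and 2.67 CPM (3.87 ± 0.40, adjusted p = 0.000456). The receptors of GM-CSF were not called. Csf2ra had 415 and 482 against 528 and 508 CPM and Csf2rb had 672 and 699.5 against 635 and 586 CPM. All 3 lower calls were lost without tCD115- replicate 1, 2 of them without tCD115+ replicate 1, and 5 were called without tCD115- replicate 2, and the 3 higher calls were kept without any of the 4 EL4 libraries.

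Chemoattractant receptors were called higher for 8 of 21 tested members and lower for 3, with a median of 0.36. Cxcr2, the receptor that draws neutrophils into blood, had 132 and 80.3 against 3.63 and 2.27 CPM (log2 change 5.15 ± 0.32, adjusted p = 5.22e-05). Fpr2, a receptor for formyl peptides, had 101 and 50.9 against 19.3 and 10.1 CPM (2.37 ± 0.39, adjusted p = 0.00344), and Ltb4r1, the receptor for leukotriene B4, had 272 and 214 against 99.8 and 84.8 CPM (1.40 ± 0.14, adjusted p = 0.000412). Ccr2, Cx3cr1 and Gpr183 were the 3 that were lower. Without tCD115- replicate 1 there were 6 higher and 2 lower, with the call of Ccr2 lost, and without tCD115- replicate 2 there were 8 and 5. The 8 higher became 5 with only the 4 EL4 libraries, where 19 were tested, and under a minimum of 10 counts per library, where 17 were. Cxcr4, which holds cells in the marrow, had 310.3 and 281 against 314 and 324 CPM and was not called.

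Genes tied to suppression were called higher for 6 of 18 tested members (Nos2, Pdcd1lg2, Ptges, Nt5e, Slc7a11 and Tnf) and lower for 0, with a median of 0.56. Ptges, which encodes a prostaglandin E synthase, had 11.3 and 9.25 against 3.93 and 2.98 CPM (log2 change 1.57 ± 0.20, adjusted p = 0.0011), Slc7a11, the cystine transporter, had 2.65 and 1.75 against 0.435 and 0.413 CPM (2.37 ± 0.38, adjusted p = 0.00325), and Tnf had 24.96 and 20.8 against 9.22 and 8.198 CPM (1.39 ± 0.14, adjusted p = 0.000392). Nos2, which encodes inducible nitric oxide synthase, was at 0.1898 and 0.178 against 0 and 0 CPM, which is 32 reads in tCD115- and none in tCD115+ and at least 10.5-fold higher against the floor. Arg1, which encodes arginase 1, was too low to be tested, and Il10 was absent from the deposited counts. Members that were not called included Tgfb1 with 227 and 265 against 315 and 338 CPM, Cd274, which encodes PD-L1, with 4.995 and 4.397 against 4.12 and 3.34 CPM, and Vsir, which encodes VISTA, with 891 and 955 against 897 and 856 CPM. The 6 calls became 3 without tCD115+ replicate 2 and when every library needed at least 10 counts.

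The NADPH oxidase, which makes superoxide in phagocytes, had 2 of 7 subunits called higher, 0 lower and a median of 0.67. Ncf1, which encodes p47phox, had 1927 and 1495 against 531 and 531 CPM (log2 change 1.69 ± 0.14, adjusted p = 0.000176), and Rac2 had 1814 and 1496 against 765 and 740.2 CPM (1.14 ± 0.11, adjusted p = 0.000339), a call lost with library totals alone. Cybb, the catalytic subunit, had 2778 and 2548 against 1766 and 1587 CPM, under 2-fold (0.67 ± 0.11, adjusted p = 0.00397). Antioxidant genes were called higher for 2 of 23 (Nqo1 and Mgst2), near the share over all genes, with changes under 2-fold in both directions for the others, such as 0.88 ± 0.13 for the peroxiredoxin Prdx5 and -0.85 ± 0.09 for the superoxide dismutase Sod1. Of 14 pro-apoptotic genes 0 were called, also by DESeq2 and limma-voom, though 7 had an unadjusted p under 0.05 and 1 was lower without tCD115- replicate 2, and of 11 anti-apoptotic genes only Bcl2a1b, which shares sequence with its paralogs Bcl2a1a and Bcl2a1d, was called higher, a call lost without any 1 of 7 libraries. Mcl1, a survival factor of myeloid cells, had 368 and 435 against 545 and 529 CPM (-0.42 ± 0.13, under 2-fold). Phagocytic receptors were called higher for 1 (Fcgr4) and lower for 2 of 20, Cd93 and the β-glucan receptor Clec7a, both with changes close to 2-fold and both lost under DESeq2 and without tCD115+ replicate 1, while 6 were lower without tCD115- replicate 2.

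Of 21 glycolysis genes 5 were called higher and 0 lower, with a median of 0.26, and 14 had an adjusted p under 0.05 at any fold. Slc2a3, the glucose transporter GLUT3, had 223 and 146 against 8.82 and 5.997 CPM (log2 change 4.63 ± 0.30, adjusted p = 5.81e-05), and Hk3, a hexokinase of myeloid cells, had 663 and 553 against 189 and 202 CPM (1.63 ± 0.14, adjusted p = 0.000187). Gpi1, Pfkfb3 and Pfkfb4 were the others, and Slc2a1, which encodes GLUT1, had 34.8 and 40.5 against 49.7 and 48.2 CPM. Of 22 lipid genes 4 were called higher and 2 lower. Mogat2, Dgat1 and Dgat2, which encode enzymes of triglyceride synthesis, were higher by 7.25 ± 0.33, 2.61 ± 0.17 and 2.74 ± 0.24 on the log2 scale, and Mogat2 was nearly absent from tCD115+ at 75.8 and 55.5 against 0.364 and 0.509 CPM. Abca1, the cholesterol exporter, and Fabp5, a fatty acid-binding protein, were lower by at most 1.27 on that scale, and 1 lipid gene was called lower without tCD115- replicate 1 or tCD115+ replicate 1.

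Angiogenic factors were called higher for 9 of 22 tested members and lower for 3 (Eng, Tnfsf12 and Thbs1), with a median of 0.63. Vegfa, the growth factor of vessels, had 64.6 and 46.9 against 0.768 and 0.591 CPM (log2 change 6.34 ± 0.26, adjusted p = 1.66e-05), and Plau, the urokinase-type plasminogen activator, had 59.3 and 51.2 against 21.4 and 27.4 CPM (1.18 ± 0.14, adjusted p = 0.000778). The 3 lower calls were 1 without tCD115- replicate 1 and without tCD115+ replicate 1. Interferon-stimulated genes were called higher for 2 of 25 (8.0%, near the 8.36% over all genes) and lower for 0, with a median of -0.35. Ifit2 had 48.1 and 39.1 against 17.9 and 17.8 CPM (1.29 ± 0.11, adjusted p = 0.000219) and Isg20 had 10.1 and 10.01 against 4.77 and 4.77 CPM (1.08 ± 0.10, adjusted p = 0.000272), while Ifit1 and Ifit3, relatives of Ifit2, were not called. Without tCD115- replicate 2, 7 of the 25 were called lower. Egr2 was the 1 of 18 immediate early and heat shock genes that was called, a call lost without tCD115+ replicate 2, and Fos had 149.9 and 221 against 426 and 231 CPM.

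Markers of other cell types were read beside these results. T and NK cell markers were called higher for 16 of 17 tested members, with a median of 4.63, at levels far below the granule genes. Their summed level was 24.1 and 48.2 CPM in tCD115- and 2.76 and 3.27 CPM in tCD115+, so that tCD115- replicate 2 was the higher of the pair, in contrast to the granule lists. Il2rb, a chain of the interleukin-2 receptor, had 5.48 and 13.9 against 0.202 and 0.289 CPM (log2 change 5.32 ± 0.52, adjusted p = 0.000373), Cd3g, a chain of the T cell receptor complex, had 1.58 and 1.99 against 0.0505 and 0.0688 CPM (4.90 ± 0.37, adjusted p = 0.00011), and Lck, a kinase of T cells, had 2.62 and 5.599 against 0.152 and 0.165 CPM (4.69 ± 0.43, adjusted p = 0.000271). Tbx21, the factor T-bet, had 198 reads in tCD115- and none in tCD115+, at least 64.0-fold higher against the floor. In naive mice 8 of the 17 were called higher in nCD115-, with a median of 2.03. Their summed level there was 26.5 and 26.5 CPM in nCD115- and 8.51 and 7.41 CPM in nCD115+. When every library needed at least 10 counts, only 4 of the 17 could be tested, and all 4 were called higher. In bulk libraries, fewer cells of a type and less RNA per cell cannot be told apart, and the part of cells with T and NK or neutrophil transcripts in the differences was not tested.

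B cell markers were called for 0 of 11 (1 at an unadjusted p under 0.05, 0 by DESeq2 and limma-voom, 3 without tCD115- replicate 2), with sums of 16.5 and 11.8 CPM in tCD115- and 16.5 and 13.2 CPM in tCD115+. Of basophil and mast cell markers 2 of 8 were called higher, Hdc, the histidine decarboxylase of several myeloid cells, with 149.8 and 118 against 2.54 and 1.88 CPM (log2 change 5.91 ± 0.26, adjusted p = 1.66e-05), and Ms4a2, with 3.25 and 2.56 against 0.283 and 0.3301 CPM, whereas the defining proteases Mcpt8, Prss34 and Cpa3 were not called and were at or under 2.79 CPM. Of eosinophil markers only Siglecf of 4 tested was called, and Prg2 and Epx were at or under 1.23 CPM. Erythroid markers (1 of 12 called higher, Car2, a call lost without any 1 of 7 libraries) summed to 2.32 to 3.86 CPM over the 4 libraries, and endothelial and stromal markers (2 of 7, Tie1 and Col1a1) to 25.4 to 29.8 CPM. Of 9 megakaryocyte markers 3 were called higher (Gp1bb, Gp9 and Clec1b) and 1 lower (Treml1), and 0 were lower without any 1 of 7 libraries. Gp1bb, a platelet glycoprotein, had 3.77 and 13.3 against 0.162 and 0.1100 CPM (5.93 ± 0.71, adjusted p = 0.000916), but Pf4 and Ppbp of the same cells were at or under 0.190 CPM. The position of Gp1bb (chr16:18620319-18622403) overlaps that of Sept5 (chr16:18621811-18629938), also called higher. Within tCD115-, Sept5 was higher in replicate 1 (331 and 217 CPM) and Gp1bb in replicate 2. Whether reads were exchanged between them was not tested.

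Some called genes lay next to each other in the genome. In RefSeq order of the 13181 tested genes with a position, 35 runs of at least 3 neighbouring genes were all called higher and 2 runs all lower. The longest held 8 Gimap genes, GTPases of lymphocytes (chr6:48647186-48770851, GRCm38), at 0.499 to 7.18 CPM in tCD115- and at most 0.374 CPM in tCD115+, with changes of 2.46 to 9.62 of which the highest, that of Gimap7, has no read in tCD115+ and is no estimate. S100a8, S100a9 and Pglyrp4 formed another run (chr3:90669071-90741517), and the stefin genes Stfa1, BC100530, Stfa2 and Stfa3 one more (chr16:36277148-36455392). These runs were picked after their values were seen.

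**Figure D4:**
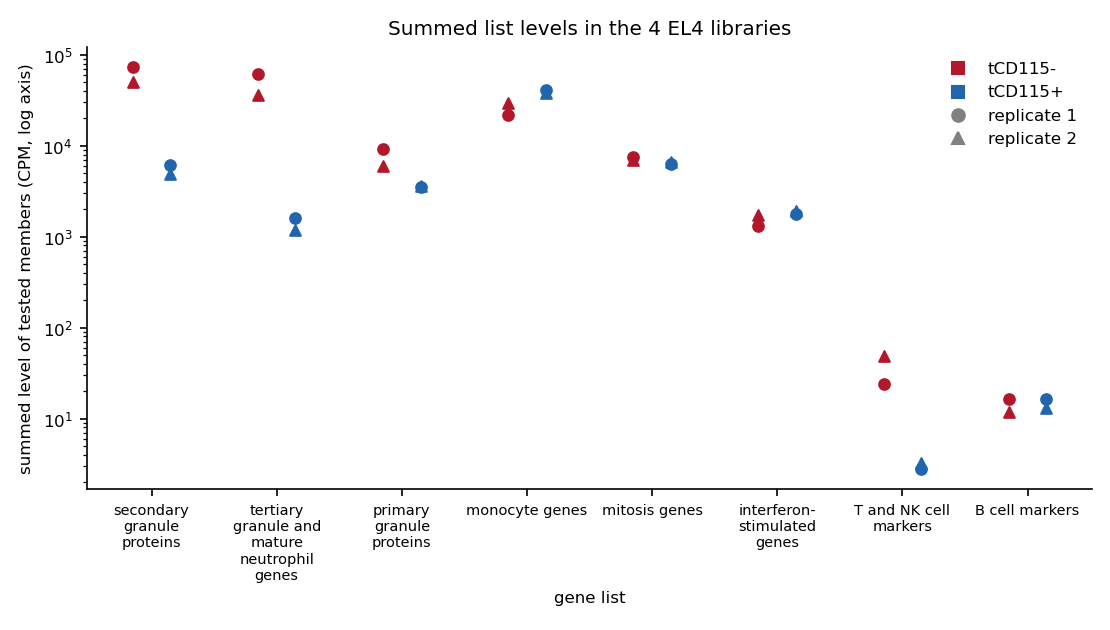
Summed level of the tested members of 8 gene lists (CPM, log axis) in the 4 EL4 libraries, with circles for replicate 1 and triangles for replicate 2. Granule and mature neutrophil lists lie higher in tCD115- and within it higher in replicate 1, T and NK cell markers lie higher in tCD115- and within it higher in replicate 2 (48.2 against 24.1 CPM), and monocyte genes lie lower in tCD115-.

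Among called genes, the 2 tCD115- libraries differed mostly along the same direction as the groups. Of the 1105 genes called higher in tCD115-, 904 (81.8%) were higher in tCD115- replicate 1 than in replicate 2, and of the 525 called lower, 455 were lower in replicate 1. The nCD115- libraries were as one-sided, with the replicate numbers the other way round: replicate 1 was below replicate 2 for 939 of the 1105 and above it for 434 of the 525. The CD115+ groups were closer to an even split, with 621 and 363 of the 1105 higher and lower in replicate 1 in tCD115+ and 504 and 501 in nCD115+. The same shares over all tested genes were not counted, so these counts describe the called genes alone. Monocyte genes summed to 21929 and 29207 CPM in tCD115- and to 40811 and 38209 CPM in tCD115+, and secondary granule genes to 73134 and 49725 CPM against 6176 and 4842 CPM. The cause of the difference between the replicates was not tested.

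The same comparison in naive mice shows what CD115- cells share across hosts. Between nCD115- and nCD115+, 757 genes (5.73%) were higher and 64 (0.484%) lower. Of the genes called higher in EL4 mice, 707 (64.0%) were also called higher in naive mice, which is 93.4% of the naive calls, and of those called lower 45 (8.57%) were also called lower in naive mice, which is 70.3% of the naive calls. No gene was called in opposite directions. Secondary granule proteins had 14 of 16 called higher in both hosts, with medians of 5.85 and 5.42. Monocyte genes had 0 of 25 called in naive mice, 12 at an unadjusted p under 0.05, with a median of -0.45 against -0.92 in EL4 mice.

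A difference in calls between hosts is no test, so the difference of the 2 changes was tested for every gene. It was called for 0 of 13211 genes (0%), with a lowest adjusted p of 0.0805, and 751 genes (5.68%) passed at an unadjusted p under 0.05. DESeq2 called 56 higher and 12 lower, limma-voom 0, and the quasi-likelihood fit called 60 and 113 without tCD115- replicate 2 and 16 and 7 without tCD115- replicate 1. Of the genes of lowest p, Cmah, Csf1, Slfn4 and C5ar1 are given as values and were picked after their values were seen. In the main quasi-likelihood fit Chtop and Ankrd49 (adjusted p = 0.0805) and Zfp965 and Zeb1 (adjusted p = 0.0813) ranked among them. Cmah, whose product makes N-glycolylneuraminic acid, had 45.4 and 34.3 against 1.93 and 1.32 CPM in EL4 mice and 7.42 and 9.55 against 3.46 and 3.08 CPM in naive mice, a difference of changes of 3.23 ± 0.31 (adjusted p = 0.0805). Csf1 had 4.98 and 5.46 against 3.79 and 4.205 CPM in naive mice, where it was not called, a difference of 2.78 ± 0.30 (adjusted p = 0.0805). Slfn4, a Schlafen family member, had 225 and 171 against 42.03 and 44.9 CPM and 102 and 106 against 61.2 and 66.3 CPM, a difference of 1.48 ± 0.18 (adjusted p = 0.0813). C5ar1, the receptor for complement C5a, had 15.2 and 13.9 against 20.3 and 12.2 CPM in EL4 mice and 42.8 and 58.3 against 8.01 and 8.81 CPM in naive mice, a difference of -2.75 ± 0.34 (adjusted p = 0.0813). For Csf1, tCD115- lay above and tCD115+ below all 4 naive libraries, and for C5ar1 the subsets overlapped in EL4 mice and were apart in naive mice.

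**Figure D5:**
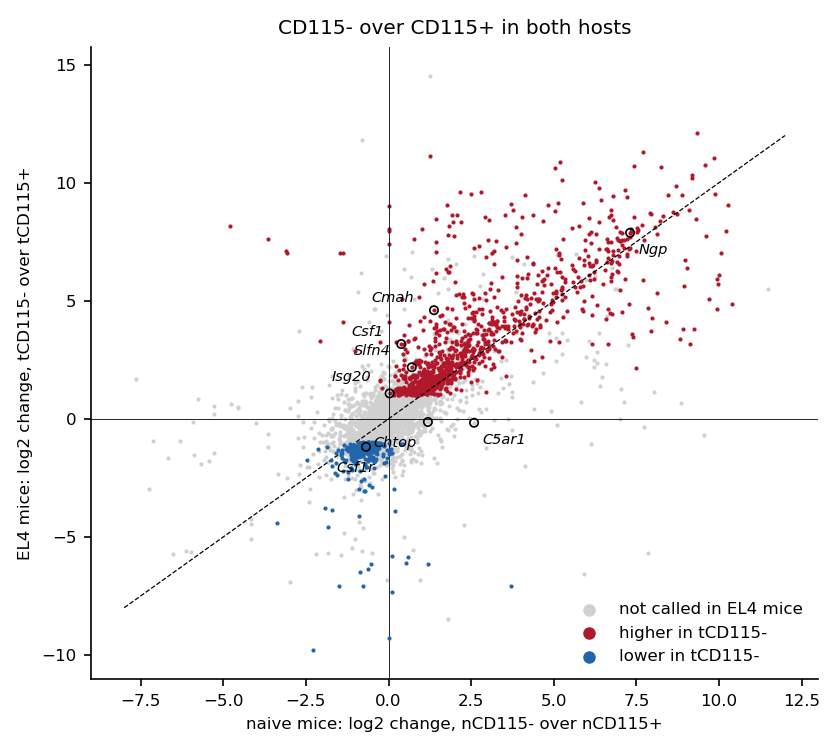
Log2 change of CD115- over CD115+ cells in naive mice (horizontal) and in EL4 mice (vertical) for the 13211 tested genes, colored by the call in EL4 mice, with a dashed line of equal change. Genes such as Ngp lie near the line, and Csf1, Cmah and Slfn4 lie above it and C5ar1 and Chtop below it, though none of the 13211 differences passed the adjusted test.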

How the data were processed

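RNA was sequenced from sorted bone marrow cells with the TruSeq Stranded mRNA kit. Whether reads were counted by strand is not stated, so genes that overlap on opposite strands are uncertain. The submitters' notes name HISAT2, Bowtie2, StringTie, DESeq2 and the build mm10, without roles. The authors deposited raw read counts per gene, which were tested, and FPKM, computed by the authors from the same reads and used only to compare levels between genes. The 24 columns of the authors' own comparisons (fold changes, p-values) and 12 further per-sample or group columns were not used.

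Counts were fitted with edgeR 4.0.16 in R 4.3.3 (robust quasi-likelihood, filterByExpr, TMM) over all 8 libraries with 1 mean per group. The EL4 contrast, the naive contrast and their difference were tested, adjusted over 13211 genes by Benjamini-Hochberg. Residual degrees of freedom are 4. Named genes are, per direction, the 10 called genes of largest change at 10 CPM or more on average, up to 4 called members of each list, the sorting markers and the 10 genes of highest level in each group. Other list members, and genes picked from those of lowest p for the difference between hosts, were named after their values were seen. The members and lists were chosen with earlier results of these data known. On data simulated for the EL4 comparison with 12982 genes, 83% of 2-fold and 99% of 4-fold changes passed the adjusted p. The fold cutoff was not applied there, and 14 unchanged genes passed too. Changes were put only into genes with a mean above 1 CPM, with the spread that the fit had estimated. The power for genes of lower level was not measured. Positions and promoter windows are from RefSeq on GRCm38.p6. Library totals of 69692398 to 95353798 reads set the precision, and bounds cover counting error only. DESeq2 1.42.0, limma-voom (3.58.1), other scalings, filters, a replicate block and leaving out each library were the alternatives.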

Additional observations from a re-analysis of the deposited data

How the results depend on the processing

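With glmTreat, the EL4 comparison had 621 genes higher and 15 lower and the naive comparison 406 and 2. With library totals alone, 840 genes were lower in EL4 mice and 103 in naive mice. Only the 4 EL4 libraries gave 255 lower genes. Leaving out 1 library in turn gave 886 to 1179 higher and 196 to 1127 lower genes in EL4 mice, and 492 to 832 and 8 to 94 in naive mice. The difference between hosts, 0 in each direction, was 56 and 12 with DESeq2, 3 and 1 without a filter, and 0 to 60 and 0 to 113 when 1 library was left out. No gene was called in the opposite direction under any of these settings. Of 107 named genes called, 62 kept their call under all alternatives in which they were tested. The other 45 lost it under at least 1, 44 of them under glmTreat, and 0 reversed. Whether replicate numbers pair the samples is not stated. Over all tested genes the replicate differences of tCD115- and tCD115+ correlated at r = 0.068, which cannot show whether they came from the same mice. A replicate block gave 1062 higher and 528 lower genes in EL4 mice and 0 for the difference between hosts. With 2 libraries a group, an exact permutation test of a single gene cannot go below p = 0.333. The cause of these differences was not tested.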

Other observations

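Pairs of genes that share sequence gave opposite readings, and these were picked after their values were seen. Atp6v0c, a proton pump subunit, had 18.7 and 18.3 CPM in tCD115- against 410 and 395 CPM in tCD115+, while Atp6v0c-ps2, a copy of it, had 481 and 413 against 0.0202 and 0.0138 CPM. Summed, the pair had 499.9 and 431.5 against 410.2 and 394.9 CPM, so neither gene's own difference is read as a change.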
